A study of Mus musculus with 4 samples.

Results

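Broad peaks away from gene ends are stretches of acetylated lysine 27 on histone H3 (H3K27ac) at least 3000 bp wide that keep clear of the 1000 bp on either side of both outer ends of every annotated protein-coding gene. They were chosen by 2 values of the deposited peak list, the width of each peak and its position against the RefSeq annotation of the mouse build GRCm38.p6. Of 56284 peaks on chromosomes 1 to 19 and X, 2465 (4.38%) met the rule. They covered 12.9 Mb, 19.9% of the acetylated length. The other peaks fell into 1902 broad peaks at gene ends, 40978 narrower peaks away from gene ends and 10939 narrower peaks at gene ends. Width and distance from gene ends are therefore the terms of the choice and not findings, and they are given below as description.

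The peaks were called in Th17 cells, helper T cells known for making IL-17. C57BL/6 naive CD4+ T cells were polarized in culture for 72 h. The treatment labels give 0.25 µg/mL of anti-CD3ε, 1 µg/mL of anti-CD28, 20 ng/mL of IL-6 and 0.1 ng/mL of TGF-β, and the growth protocol states TGF-β as a range. There were 2 chromatin immunoprecipitation libraries made with an H3K27ac antibody and 2 input DNA libraries, 1 of each for 2 biological replicates. The labels give no genotype and no other cell state, the names of the peaks carry the tags WT_Ddx5 and F1, which the labels do not explain, and the culture is not stated to have been sorted after polarization. The deposited list holds 1 set of peaks for the H3K27ac libraries, with a position and a name for each peak and no height, fold enrichment or value per replicate. Every value below is therefore a description of 1 list, with no replicate error and no test. Library depth is unknown.

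H3K27ac is laid down by the acetyltransferases p300 and CBP at active promoters and enhancers. Most acetylated sites away from promoters are short, and long runs of acetylated chromatin are often called stretch enhancers or super-enhancers. In T cells such runs are known near genes for lineage transcription factors, receptors and signalling proteins. A peak inside a gene can be an enhancer of that gene, an enhancer of another gene, or an internal promoter, and the peak list does not tell these apart.

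The label was checked against annotated starts, since a gene has outer ends in the annotation and may have more starts within. Of the 2465 broad peaks, 179 (7.26%) held at least 1 of 229 annotated starts of protein-coding transcripts, 170 (6.90%) held a start of a long noncoding RNA (lncRNA), and 2142 held no annotated start of either kind. "Away from gene ends" thus means away from the outer ends, and the name does not exclude promoters. The 229 coding starts came to 17.8 per Mb of peak. The same density was 30.1 per Mb in narrower peaks away from gene ends and 197 per Mb in broad peaks at gene ends.

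The starts inside the widest of these peaks show what such sequences look like, so the 300-base RefSeq windows (250 bases before the start and 50 after it, GRCm38.p6, 5′ to 3′ on the strand of the gene) are printed for the 5 widest peaks that hold a whole window of a coding start, 1 per peak, taken at the start nearest the middle of the peak. Capitals mark matches, on either strand, to the letters TGANTCA (AP-1), TTCNNNGAA (STAT), AGGTCA (half-site of ROR receptors), TGTGGT (RUNX) and GGAAGT (ETS). Cytip encodes a cytohesin-binding adaptor of lymphocytes, Lef1 a transcription factor of the TCF family, Hdac7 a histone deacetylase, Septin9 a cytoskeletal GTPase and Cd247 the zeta chain of the T cell receptor complex.
Cytip (chr2:58160073-58160372, minus strand): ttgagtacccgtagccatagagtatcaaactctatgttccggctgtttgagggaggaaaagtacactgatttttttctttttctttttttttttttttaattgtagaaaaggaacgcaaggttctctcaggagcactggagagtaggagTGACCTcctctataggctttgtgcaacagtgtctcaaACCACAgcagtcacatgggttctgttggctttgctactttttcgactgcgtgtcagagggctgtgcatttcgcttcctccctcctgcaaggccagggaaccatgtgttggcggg
Lef1 (chr3:131156044-131156343, plus strand): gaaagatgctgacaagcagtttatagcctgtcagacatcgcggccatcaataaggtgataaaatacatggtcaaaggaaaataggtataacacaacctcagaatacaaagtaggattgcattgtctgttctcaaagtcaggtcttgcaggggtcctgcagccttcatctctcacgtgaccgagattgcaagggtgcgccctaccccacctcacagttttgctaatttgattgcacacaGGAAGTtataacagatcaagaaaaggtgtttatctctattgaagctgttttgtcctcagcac
Hdac7 (chr15:97814814-97815113, minus strand): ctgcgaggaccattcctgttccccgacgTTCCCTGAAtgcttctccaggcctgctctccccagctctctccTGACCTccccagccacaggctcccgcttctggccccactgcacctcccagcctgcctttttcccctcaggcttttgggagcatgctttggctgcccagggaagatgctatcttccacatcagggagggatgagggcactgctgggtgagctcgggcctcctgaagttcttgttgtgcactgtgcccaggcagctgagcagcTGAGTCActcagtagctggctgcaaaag
Septin9 (chr11:117331465-117331764, plus strand): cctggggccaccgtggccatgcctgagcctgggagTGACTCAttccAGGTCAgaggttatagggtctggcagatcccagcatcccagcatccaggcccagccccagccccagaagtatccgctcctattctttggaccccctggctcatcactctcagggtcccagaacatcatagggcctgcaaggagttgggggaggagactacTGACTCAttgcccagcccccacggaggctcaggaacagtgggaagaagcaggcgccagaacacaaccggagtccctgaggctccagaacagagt
Cd247 (chr1:165788431-165788730, plus strand): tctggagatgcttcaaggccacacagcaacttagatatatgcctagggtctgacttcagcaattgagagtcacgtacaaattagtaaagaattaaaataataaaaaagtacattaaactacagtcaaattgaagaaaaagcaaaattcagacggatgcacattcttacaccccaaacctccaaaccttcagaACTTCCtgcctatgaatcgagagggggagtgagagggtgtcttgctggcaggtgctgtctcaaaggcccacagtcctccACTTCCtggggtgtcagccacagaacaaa

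These 5 windows hold few CpG dinucleotides, 7 in Cytip, 5 each in Lef1, Hdac7 and Septin9, and 3 in Cd247. Their ratios of observed to expected CpG were 0.444, 0.350, 0.185, 0.182 and 0.210 in the same order. AP-1 letters stand once in the Hdac7 window and at 2 places in the Septin9 window, STAT letters once in Hdac7, ROR letters once each in Cytip, Hdac7 and Septin9, a RUNX match once in Cytip, and ETS letters once in Lef1 and at 2 places in Cd247. The Hdac7 peak holds 2 further coding starts with CpG ratios of 0.795 and 1.09, and the Septin9 peak 1 more with a ratio of 0.58. The peaks around these starts were 25525 bp wide at Cytip, 23652 bp at Lef1, 22168 bp at Hdac7, 19587 bp at Septin9 and 18798 bp at Cd247. The Lef1 start lies 45997 bp from the nearer outer end of its gene and the Cd247 start 8729 bp.

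Other internal starts lie in CpG islands, as the windows of Rbpj, the DNA-binding partner of Notch, and Stat5b, a signal transducer of IL-2 family cytokines, show. Here capitals mark CpG dinucleotides, 28 in Rbpj and 50 in Stat5b.
Rbpj (chr5:53590236-53590535, plus strand): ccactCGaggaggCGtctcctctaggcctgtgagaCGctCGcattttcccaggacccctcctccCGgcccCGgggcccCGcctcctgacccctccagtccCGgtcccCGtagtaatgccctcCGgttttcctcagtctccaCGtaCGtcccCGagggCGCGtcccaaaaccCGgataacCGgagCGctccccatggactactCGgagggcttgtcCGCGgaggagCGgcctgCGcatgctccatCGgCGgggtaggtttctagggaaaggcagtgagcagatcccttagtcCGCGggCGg
Stat5b (chr11:100850532-100850831, minus strand): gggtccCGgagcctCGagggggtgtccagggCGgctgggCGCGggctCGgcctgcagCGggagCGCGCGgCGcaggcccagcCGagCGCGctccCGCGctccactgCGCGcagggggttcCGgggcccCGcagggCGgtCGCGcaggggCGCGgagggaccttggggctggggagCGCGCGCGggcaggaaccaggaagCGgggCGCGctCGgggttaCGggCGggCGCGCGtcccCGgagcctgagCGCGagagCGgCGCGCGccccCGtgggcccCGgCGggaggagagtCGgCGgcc

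The CpG ratios were 0.843 at Rbpj and 1.01 at Stat5b, and neither window holds a match to any of the 5 motifs. The Rbpj peak was 16344 bp wide and the Stat5b peak 12790 bp. CpG-poor and CpG-rich starts thus both occurred among the widest peaks, and in the Hdac7 peak within 1 peak.

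Over all 229 coding starts in broad peaks away from gene ends the median CpG ratio was 0.665 (quartiles 0.350 and 0.917), and 56.3% had a ratio of at least 0.6. These starts belonged to 170 genes. Windows of close starts overlap, so some sequence counts more than once, here and in the motif shares below. Coding starts over 1000 bp from every coding gene end and in no peak, 2353 in number, had a median of 0.272 (0.159 and 0.463). The 225 such starts in broad peaks at gene ends had a median of 0.704, and the 825 in narrower peaks away from gene ends 0.718. The 203 lncRNA starts in the broad peaks had a lower median of 0.289 (0.160 and 0.481), beside 0.211 for 9169 lncRNA starts in no peak. The plot of CpG ratios shows the coding starts in broad peaks shifted to higher ratios over most of the range, with a lower tail that overlaps the starts in no peak.

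**Figure D1:**
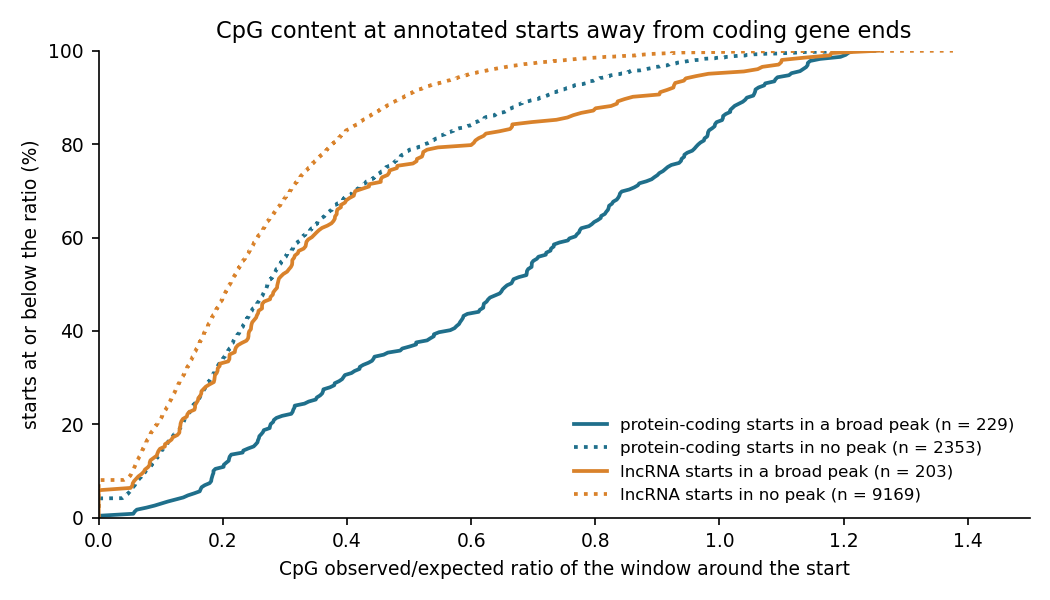
Share of annotated starts (vertical axis, percent) at or below a given ratio of observed to expected CpG (horizontal axis) in the 300-base window around the start, for starts over 1000 bp from every protein-coding gene end. Solid lines are starts in broad peaks away from gene ends and dotted lines starts in no peak, blue for protein-coding and orange for lncRNA starts; the median of the coding starts in broad peaks is 0.665 and that of those in no peak 0.272.

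The AP-1 letters stood in 10.9% of the 229 coding windows and in 7.85% of all 32619 windows. Among other coding windows over 1000 bp from every coding gene end, they stood in 5.45% in narrower peaks away from gene ends. The share was 2.67% in broad peaks at gene ends and 9.05% in no peak. RUNX letters stood in 14.4% of the coding windows in broad peaks, against 16.6% of all windows. They stood in 25.6% of the lncRNA windows in broad peaks. The share was 20.4% of lncRNA windows in narrower peaks away from gene ends, and 21.1% of those away from gene ends in no peak. For STAT the share in coding windows was 8.73% (8.34% of all windows), for ROR 16.6% (16.2%) and for ETS 25.8% (23.9%). The coding windows were thus near the share of all windows, which include lncRNA windows, for STAT, ROR and ETS. Beside the 3 other kinds of coding window named for AP-1, in the same order, they were less alike. The shares there were 7.15%, 9.33% and 7.9% for STAT, 12.4%, 12.4% and 19.4% for ROR, and 27.6%, 26.2% and 17.8% for ETS. A match gives only the letters and says nothing of binding.

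The broad peaks away from gene ends had a median width of 4219 bp (quartiles 3457 and 5761 bp). Of them 864 (35.1%) were at least 5000 bp wide, 151 (6.13%) at least 10000 bp and 22 (0.892%) at least 20000 bp. Broad peaks at gene ends, also chosen for a width of at least 3000 bp, had a median of 4156.5 bp and 7.94% were at least 10000 bp wide. The rule cut through a continuous range of widths. There were 666 members from 3000 to under 3500 bp wide and 953 peaks away from gene ends from 2500 to under 3000 bp. The narrowest members were 3000 bp near Twist2, 3002 bp near Gins2 and 3003 bp near Tcof1, and the widest peaks left out were 2998 bp near Ubash3a and Klre1 and 2997 bp near Gpr171. At the window limit, members lay 1033 bp from a gene end at Rcsd1, 1038 bp at Spef2 and 1043 bp at Golga7. The broad peaks with the least overlap reached 1 bp into a window at Il21r, 3 bp at Phactr4 and 19 bp at Ankrd17.

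The widest member, 58472 bp at chr9:32694442-32752913, lay inside Ets1, a transcription factor needed for T cell development, and came within 4906 bp of an end of that gene. It covered 48.1% of the gene. The next was 31277 bp wide at chr5:53392282-53423558, in no annotated gene, with Smim20 the nearest coding gene at 113741 bp. Next came a stretch of 29136 bp at chr6:129214090-129243225, which lay 24098 bp from Cd69, an early activation receptor, and over 2 lncRNA genes, Gm38906 and 2310001H17Rik. Then followed 27195 bp in Itpr1, a calcium release channel, 25525 bp in Cytip, 24530 bp in Ikzf1 (Ikaros, a lymphoid zinc finger factor), 23999 bp in Sla, 23763 bp in Maml2 (a Notch coactivator), 23652 bp in Lef1 and 23452 bp in Lcp1 (the actin-bundling L-plastin). Sla encodes an adaptor that dampens T cell receptor signalling and lies within Tg, the thyroglobulin gene. Of these 10 peaks, 8 lay in coding genes.

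Of the 2465 members, 1479 (60.0%) overlapped a protein-coding gene, and the rule itself keeps each of them wholly inside it. A further 358 (14.5%) overlapped only another annotated gene, and 628 (25.5%) overlapped none. The same shares for narrower peaks away from gene ends were 59.9% inside coding genes and 10.1% over other genes only. The share inside coding genes was thus alike, and the share over other annotated genes was higher among the broad peaks. An overlap of 1 bp counts, and a wider peak can touch more genes. By the rule the 2 kinds differ in width, with medians of 4219 and 417 bp. How much of the difference goes with width was not tested. Median widths were 4219 bp inside coding genes, 4392 bp over other genes and 4109 bp outside genes. There were 92 peaks of at least 10000 bp inside coding genes, 29 over other genes and 30 outside genes. The 986 members outside coding genes lay a median of 30295.5 bp from the nearest one (quartiles 11446 and 77562 bp), and 197 (20.0%) lay over 100000 bp away. The nearest coding gene had a peak at an end for 83.6% of them, against 79.1% for narrower peaks.

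**Figure D2:**
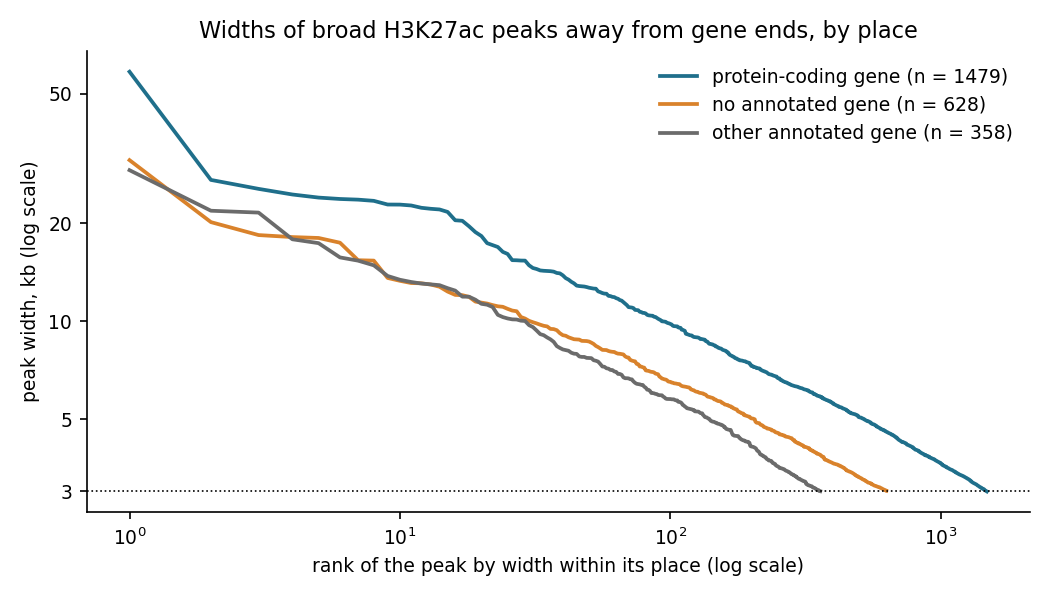
Widths of the broad peaks away from gene ends (vertical axis, kb, log scale) in order of rank (horizontal axis, log scale) for peaks inside a protein-coding gene (blue, 1479), over another annotated gene only (grey, 358) and over no annotated gene (orange, 628). The dotted line is the width limit of the rule; the widest peak, in Ets1, stands apart at 58472 bp.

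Members came to between 0.644 per Mb on chromosome 3 and 1.55 per Mb on chromosome 11 among the autosomes, and to 0.311 per Mb on X. On X they were 53 of 1251 peaks (4.24%), near the share over all chromosomes, so the low density there goes with a low density of peaks. The shares of peaks that were members ran from 3.15% on chromosome 17 to 5.72% on chromosome 15.

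The broad peaks seldom stood alone in the list. The gap to the nearest other peak had a median of 226 bp (quartiles 108 and 1308 bp), beside 514.5 bp for broad peaks at gene ends and 310 bp for narrower peaks away from them. Another peak lay at most 1000 bp away for 72.3%, against 58.5% and 65.0%, and on both sides for 27.6%, against 12.6% and 17.1%. A gap of over 12.5 kb was found for 3.77%, against 11.9% and 11.3%. Much of the closeness of members to other peaks came from short neighbours. With only peaks of at least 500 bp kept, an alternative chosen after seeing the data, the share of members with a neighbour at most 1000 bp away was 45.8%. The shares of the other kinds of peak were not computed this way. Where peaks at most 200 bp apart were joined, 88 members (3.57%) became part of a region that reached a gene-end window, and at 1000 bp 235 (9.53%) did. The call of a peak as away from gene ends thus held for most members when such small gaps were closed.

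With members at most 12.5 kb apart taken as a group, 984 (39.9%) fell into 402 groups of at least 2 and 1481 stood alone. Of the groups, 11 had at least 5 members. The group with the largest summed width was in Bach2, a repressor that restrains effector T cell differentiation. Its 12 members at chr4:32246644-32407394 held 133208 bp, 82.9% of the span. The next, 5 members with 58919 bp at chr5:53378164-53449008, lay in no coding gene, 99623 bp from Smim20, and includes the second widest peak named above. It was followed by 5 members with 58747 bp at chr15:62777874-62840696, whose nearest coding gene was Myc at 787512 bp, by the single Ets1 peak, and by 4 members with 45888 bp in Prkch, a protein kinase C.

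Myc encodes a transcription factor of growth and metabolism, and the 5 members farthest from any coding gene were those of the group just named, up to 837018 bp from Myc. Within 900 kb beyond the gene end of higher coordinate lay 20 members, 3059 to 18408 bp wide, with 158113 bp in sum. Of these, 9 lay between 700 and 900 kb and held 90735 bp. The first members beyond the gene were 4010 and 3138 bp wide and lay about 47.1 and 51.7 kb out, and 7 members in all lay over the lncRNA gene Pvt1. The distance was measured along the chromosome, and the list does not link any peak to a target gene.

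**Figure D3:**
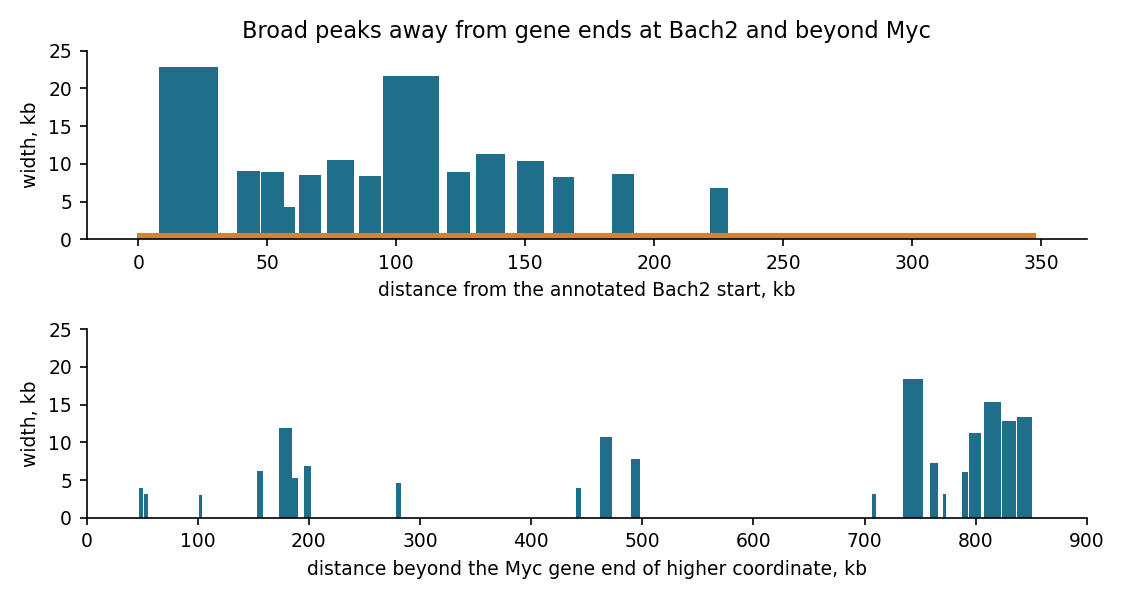
Broad peaks away from gene ends drawn as bars whose horizontal extent is their position (kb) and whose height is their width (kb): above, from the annotated start of Bach2 (the orange strip is the gene), below, beyond the Myc gene end of higher coordinate. At Bach2 the 2 highest bars are 22849 and 21684 bp, and beyond Myc 9 bars stand between 700 and 900 kb.

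The 1479 members inside coding genes lay in 916 genes, 4.23% of the 21631 protein-coding genes. Of these host genes 622 held 1 member, 294 held 2 or more, 33 held 5 or more and 5 held 10 or more. With flanks of 20000 bp added on each side, 1660 genes (7.67%) had a member. Host genes had a median length of 78881 bp against 17329 bp for all coding genes, and the share of hosts differed by length. Hosts were 0.446% of genes under 20000 bp, 4.93% from 20000 to 50000 bp, 10.1% from 50000 to 100000 bp, 15% from 100000 to 200000 bp and 14.9% above that.

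Bach2 held 14 members, more than any other gene. Their widths ran from 4254 to 22849 bp with a median of 8967.5 bp, and they covered 148740 bp, 42.8% of the gene. Rora, the ROR receptor alpha of the Th17 program, held 10 members with a median of 10507 bp and 103193 bp in sum, 14.0% of a much longer gene. Prkch held 9 with 82083 bp (42.4% of the gene), Inpp4b, a phosphoinositide phosphatase, 13 with 77955 bp (9.84%), and Itpr1 8 with 76997 bp (22.8%). Foxp1, a factor of naive T cell quiescence, and Wwox, an oxidoreductase with WW domains, each held 11, with 54036 bp and 47148 bp. Genes with like counts thus differed in the size of their peaks, with medians of 10507 bp in Rora and 3732 bp in Wwox.

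The other 8 of the 15 genes with most members were Hivep2, a zinc finger factor, and Etv6, an ETS family repressor, with 8 each, Clec16a, an endosomal regulator, and Akap13, an anchor of protein kinase A, with 7 each, and 4 of the genes with 6. Other genes also held 6, Bcl2l1 among them, and these 4 were taken for their larger summed widths. Among the 4, Prkcq encodes protein kinase C theta, which works below the T cell receptor and had 49636 bp in members (38.4% of the gene), and Nfkb1 encodes the p105 and p50 subunits of NF-κB and had 43465 bp (40.5%). Septin9 had 43596 bp. Tg, whose product is made in the thyroid, had 59157 bp, and 3 of its 6 members also lay in the nested Sla, with widths of 23999, 10827 and 6369 bp. In all, 9 members lay in 2 or more coding genes at once.

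**Figure D4:**
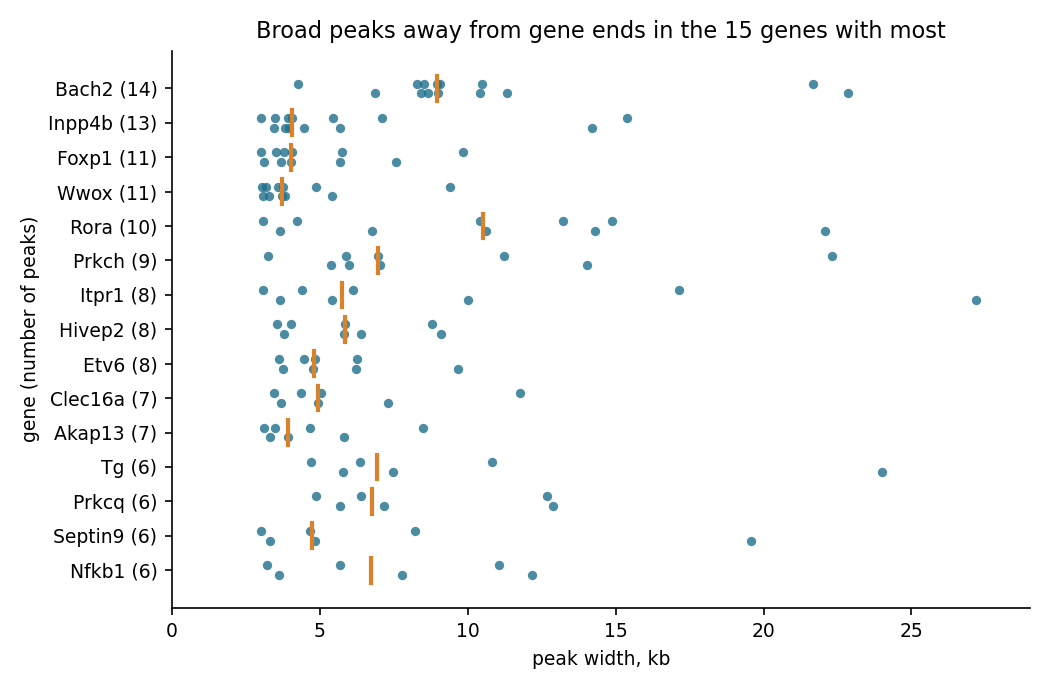
Width of each broad peak away from gene ends (horizontal axis, kb; 1 point per peak) in the 15 protein-coding genes with most of them (vertical axis, number of peaks in parentheses), with the median as an orange bar. The medians of Rora (10507 bp) and Bach2 (8967.5 bp) lie to the right of those of the other genes, and Itpr1 holds the widest peak shown.

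Acetylation at a gene end was often found in host genes as well. A peak of any width touched an end window in 763 of 916 hosts (83.3%), against 53.8% of all coding genes. With peaks classed by their midpoint, both as members and at gene ends, the share of hosts was 46.5%. The share of all coding genes was not computed with midpoints, so the 46.5% cannot be set against the 53.8%. In the same length class the shares were 75% in hosts and 47.1% in other genes under 20000 bp, 85.9% and 63.8% from 20000 to 50000 bp, 87.0% and 63.2% from 50000 to 100000 bp, 84.2% and 52.6% from 100000 to 200000 bp, and 74.3% and 34.2% above that. The difference was seen in each length class. Strand was known for 727 hosts. Of these, 79.6% had a peak at the start and 19.4% at the finish, against 52.4% and 11% of the 17274 coding genes with a strand.

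The other 153 hosts had no peak at either outer end, among them Rora, Hivep2, Septin9, Bcl2l1 (the survival factor Bcl-xL), Pde1a, Lrrfip1, Celf2, Camk4, Rbpj and Gramd1b. Annotated starts were at hand for 123 of the 153, and in 85 (69.1%) a peak lay over such a start, in 58 of them a broad member itself. Among other genes with no end peak and a start in the table, 359 of 7724 (4.65%) had such a peak. A member over a start also counts in making its gene a host, so part of the hosts' share follows from the choice. Hivep2, Septin9, Bcl2l1, Lrrfip1, Celf2 and Rbpj had a member over an internal start. Rora, with 1 start in the table, had no peak there although it held 101 peaks in its body, 10 of them broad.

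Along genes with a known strand, the midpoints of 1169 pairs of a member and a gene lay at a median of 43.0% of the gene's length from the start, a median of 36472 bp in. Narrower peaks away from gene ends lay at 42.2%. The first 20% of the gene's length held 19.7% of the members' midpoints and 24.2% of the narrower peaks'. In genes of at least 50000 bp, where a broad peak is kept away from the ends by less of the gene's length, the shares were 22.3% and 23.9%. The shares of the 2 kinds of peak in this stretch thus lay closer together in long genes.

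Genes were grouped in lists. For each list reported, the genes with a member inside are given beside the 4.23% of all coding genes. List members differ in length from one list to the next, which the shares do not take into account. The lists were chosen with earlier results of these data known, so their shares are descriptions.

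Th17 program genes encode the cytokines, receptors and transcription factors of the lineage. Of 30, 6 held a member inside and 12 inside or in the flanks of 20000 bp (against 7.67% of all genes), with a median gene length of 22333 bp. Among receptors, Il23r held members of 4479 and 6455 bp, Il6ra 5654 and 4059 bp with another of 3022 bp at 3044 bp from the gene, and Il1r1 4273 and 4129 bp. These bind IL-23, IL-6 and IL-1, cytokines that drive or sustain Th17 cells. Tnfrsf13b, a receptor of the TNF family, held 1 of 3574 bp, and Nfkbiz, an IκB family regulator of IL-17 responses, 1 of 5373 bp. The widths in Rora ran from 3079 to 22066 bp.

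The Th17 cytokine genes are short, and their members lay outside them. Near Il17a lay members of 3921 bp at 3075 bp from the gene and 6048 bp at 15841 bp, and near Il17f 1 of 5100 bp at 15549 bp. Il21 had 1 of 13590 bp at 8057 bp, the widest of the program outside Rora. Tgfb3, a TGF-β that Th17 cells make, had 1 of 4031 bp at 7837 bp. Of the transcription factors, Hif1a, the hypoxia factor, had members of 9028 and 3063 bp at 13176 and 10013 bp, and Ahr, the aryl hydrocarbon receptor, 1 of 4205 bp at 16725 bp. Basp1 and Batf, the first in alphabetical order besides Ahr with no member inside, also had none in their flanks.

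The lists of T cell lineage factors and of receptor signalling had higher shares than the Th17 program, and longer genes. Of 26 T lineage transcription factors, 12 held a member (median length 92564 bp), led by Bach2, by Ets1 and by Foxp1. Foxo1, Id2 and Id3 held none inside. A member inside needs a gene of at least 5002 bp, which Id2 (2294 bp) and Id3 (1571 bp) do not reach. Of the 26 factors 22 were long enough. Of 25 genes that mark T cells or act below their antigen receptor, 11 held a member (44451 bp), and 24 were long enough. Beside Prkcq, Cd247 held 2 with 27702 bp, while Cd2, Cd27 and Cd28 held none inside, Cd27 being too short at 4517 bp. Lck, the first kinase of the pathway, held 1 of 3860 bp. All 25 of these genes and 25 of the 26 factors had a peak at a gene end.

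Of 25 genes of activation, NF-κB and AP-1, 8 held a member, led by Nfkb1 (6 with 43465 bp), Bcl2l1 (6 with 41931 bp) and Tnfsf8 (5772 bp), the gene of the CD30 ligand. Of the 25, 19 were long enough to hold a member. Bhlhe40, Cd69 and Egr1 held none inside, Egr1 being too short at 3750 bp. Of 22 genes of ubiquitin, mRNA decay and other feedback, 7 held one, led by the phosphatases Ptpn2 (2 with 14152 bp) and Dusp10 (2 with 10027 bp) and the lipid kinase Dgkz (2 with 9223 bp). Of 24 JAK-STAT genes, 4 did, among them Stat5b (2 with 17324 bp), the IL-2 receptor chain Il2rb (7783 bp) and Jak1 (5191 bp), and 9 did with flanks. Of 20 TGF-β signalling genes, 4 did: the co-receptor Tgfbr3 (3 with 12818 bp), the inhibitors Smad7 (3 with 11667 bp) and Ski (2 with 10354 bp), and Smad3 (4152 bp). Of 20 genes of chemokine receptors, homing and integrins, 3 did, among them the adhesion molecules Selplg (7538 bp) and Itgb2 (3262 bp), and 8 did with flanks.

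Genes of other helper lineages were not free of such peaks. Of 17 regulatory T cell genes 5 held a member, among them the costimulatory receptor Tnfrsf9 (2 with 8560 bp), the integrin Itgae (2 with 7786 bp) and the zinc finger factor Ikzf4 (3871 bp). Foxp3, Ctla4 and Entpd1 held none inside, though Foxp3 had 1 of 3155 bp and Ctla4 3 of up to 7520 bp in the flanks. Of 13 follicular helper genes 4 did, with Tox (4 with 14190 bp), Il6ra, which is also on the Th17 list, and Icos (2 with 9558 bp) ahead. Of 21 Th1 and cytotoxic genes 3 did, Il12rb2 (2 with 12049 bp), Runx3 (9554 bp) and Stat4 (2 with 8122 bp). Of 13 Th2 genes 2 did, Gata3 (2 with 8345 bp) and Ccr4 (3979 bp). With flanks the counts were 9, 5, 6 and 3 in the same order.

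General cell functions showed a wide range. Of 21 writers, erasers and readers of acetylation 7 did, led by the deacetylases Hdac7 (2 with 25279 bp) and Hdac4 (4 with 17885 bp) and the acetyltransferase Kat6b (7276 bp). Of 19 glycolysis genes 7 did (22797 bp), among them Pfkp (2 with 9100 bp), Hk2 (2 with 6876 bp) and the glucose transporter Slc2a1 (6844 bp). Of 26 cell cycle genes 3 did, Ccnd3 (4 with 28457 bp), Cdk6 (3 with 23009 bp) and Rb1 (4041 bp), although all 26 had a peak at an end. Of 30 ribosomal protein genes 0 did, while all 30 had a peak at an end, and their median length was 3879 bp. Since a member inside must be clear of both end windows, a gene under 5002 bp cannot hold one, and 7 of the 30 were long enough. Of all coding genes 77.6% were long enough, and 5.46% of those held a member.

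**Figure D5:**
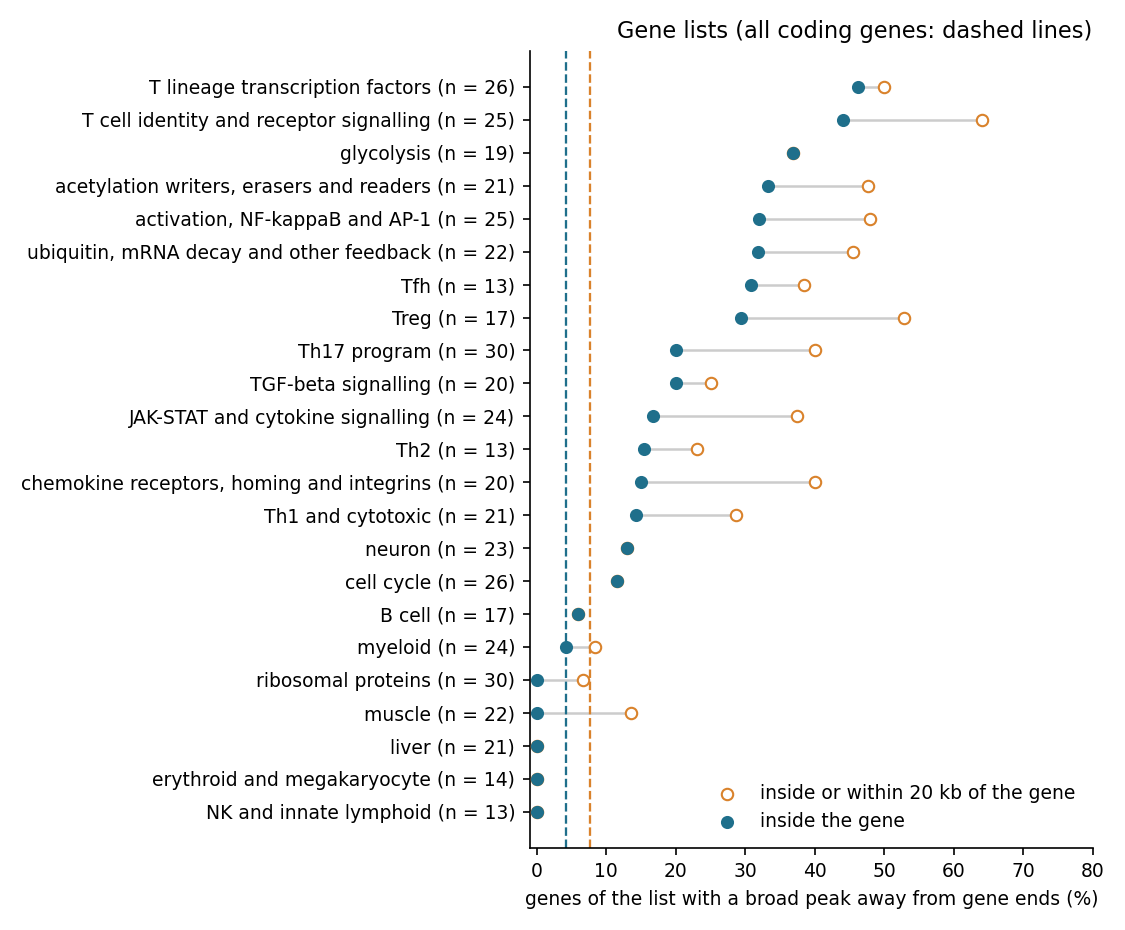
Share of the genes of each list reported (horizontal axis, percent) that hold a broad peak away from gene ends inside the gene (blue) or inside it and its 20 kb flanks (open orange), with the number of genes in parentheses. The dashed lines give the shares over all protein-coding genes, 4.23% inside and 7.67% with flanks; the T lineage transcription factors stand highest inside of the lists drawn, with 12 of 26 genes.

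The defining markers of T cells had a peak at a gene end in 9 of 9 genes, and those of Th17 cells in 5 of 6, the exception being Rora. For other cells the culture could hold, end peaks stood at 2 of 6 B cell markers (Cd79a and Ebf1), 2 of 6 myeloid markers (Cd14 and Spi1) and 1 of 3 erythroid markers (Klf1). Over all coding genes the share with an end peak was 53.8%. Members inside genes of the longer lists were 1 of 17 for B cells (Ebf1, 4300 bp), 1 of 24 for myeloid cells (Mrc1, 4533 bp), and 0 of 13 for natural killer and innate lymphoid cells, 0 of 14 for red cells and platelets, 0 of 21 for liver and 0 of 22 for muscle, with 11, 7, 18 and 17 genes long enough in these 4 lists. Of 23 genes of the nervous system, listed under neuron, 3 held one, the myelin gene Mbp (2 with 9067 bp), Slc17a6 (4655 bp) and Gad2 (3321 bp). The part of chromatin from other cells in the members was not tested.

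Among genes that do not encode proteins, 409 lncRNA genes were overlapped by 470 of the 2465 members. The share of all lncRNA genes is not given here, so the count is a description. Gm31718 had the longest sum, 46899 bp in 5 members, then Lncpint with 44129 bp in 8 and Pvt1 with 40449 bp in 7. The start of Mir155hg, the host transcript of a microRNA induced in activated lymphocytes, lay in a member of 14861 bp. A set of 8 members overlapped 29 segments of antigen receptor genes, which are annotated apart from protein-coding genes. Neither the share of all such segments nor the count for other kinds of peak is given here, so this too is a description. At the T cell receptor beta locus, members of 4443, 8282 and 13783 bp followed each other from chr6:41533841 to chr6:41560807 over the joining segments and the constant genes Trbc1 and Trbc2, and 4 others lay over variable segments. At the alpha locus 1 member of 4231 bp lay over Traj56 to Traj53.

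In the gene annotation 15 microRNA genes were overlapped by 15 members. Of the 1005 microRNA hairpins with sequences at hand, 13 lay in members, 1.01 per Mb of peak. The density was 1.21 in narrower peaks away from gene ends and 3.21 in broad peaks at gene ends. The 22 mature sequences of the 13 hairpins in members have 22 different seeds (bases 2 to 8), so no seed is shared. Of the 6 mature sequences of 3 widely studied hairpins, 4 are printed, from RefSeq with the seed in capitals, a choice made after their values were seen.
let-7i-5p: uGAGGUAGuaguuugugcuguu
miR-199a-5p: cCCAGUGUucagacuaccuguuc
miR-199a-3p: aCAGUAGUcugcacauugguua
miR-361-5p: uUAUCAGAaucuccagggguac

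The let-7i hairpin lay in a member of 4128 bp outside coding genes on chromosome 10. The miR-199a hairpin lay in one of 3181 bp in Dnm3 on chromosome 1, and the miR-361 hairpin in one of 4249 bp in Chm on chromosome X. A peak over a hairpin gives no level of the microRNA.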

How the data were processed

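H3K27ac ChIP-seq was made on Th17 cultures, with 2 H3K27ac and 2 input libraries. The submitters' processing notes name the build GRCm38 (mm10), MACS2 2.2.6, Bowtie2 2.3.4.1, SAMtools 1.9 and deepTools. The sources used here do not give the peak threshold, nor whether replicates were pooled. The authors deposited 1 list with the chromosome, start, end and name of 56285 peaks and no score, p-value or signal. Names carry running numbers up to 71449, of which 15164 are absent from the list. Starts were taken as counted from 0, and positions are printed counted from 1. The 1 peak on chromosome Y was left out.

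Widths, overlaps (at least 1 bp), gaps and groups were computed with Python 3.11.15, numpy 2.4.6 and pandas 2.3.3, and figures with matplotlib 3.10.9. The interval code was tested on simulated data. Genes (21631 protein-coding), starts (32619) and microRNAs came from RefSeq tables of GRCm38.p6. Strand was known only for genes with a start in the table. Of 505 listed genes 503 matched by symbol. Of the lists and the genes that the naming rule takes, 1 list and some genes are not reported here. The members and lists were chosen with earlier results of these data known.

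Named are the 10 widest and 5 farthest members, the 5 longest groups, 3 peaks on each side of each limit, the 15 genes with most members, Th17 program genes with a member inside or in the flanks, up to 3 genes of each other list by summed width, and in T cell lists up to 3 in alphabetical order without one. Printed starts, hosts without an end peak, chromosomes, Smad3, Lck, Foxp3 and Ctla4 in the flanks, lncRNA genes, receptor segments and microRNAs were chosen after their values were seen. Alternatives were other widths, windows and flanks, peak midpoints, merged peaks, the ends of every annotated gene and, chosen after seeing the data, peaks of at least 500 bp.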

Additional observations from a re-analysis of the deposited data

How the results depend on the processing

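Of 50 values under alternative settings, 30 stayed within 1.5 times the reported count or within the exact 95% binomial interval of the reported share, which covers counting only, and 20 did not. A width of at least 2000 bp gave 4970 peaks, 1665 host genes, 65.3% with a neighbour at most 1000 bp away and 19 Th17 program genes, and one of at least 5000 bp gave 864 peaks, 358 host genes and 80.7%. Host genes with an end peak were 80.1% with windows of 500 bp and 89.4% with 2500 bp, since a wider window takes more peaks. Classing peaks by their midpoint put 69.7% in coding genes, gave 1612 host genes, 69.6% with a neighbour, 46.5% of hosts with an end peak and 20 Th17 program genes, since broad peaks that reach over a gene end then count as away from it. Merging peaks at most 1000 bp apart leaves, by construction, 0.0% with such a neighbour. With the ends of every annotated gene as windows, 64.3% lay in coding genes, and the cause was not tested. Th17 program genes with a member were 6 with no flank and 21 with flanks of 50000 bp. With peaks of at least 500 bp only, chosen after seeing the data, 45.8% had a neighbour and 79.9% of hosts an end peak. No paired analysis was possible because the list holds no value per library, and for the same reason no replicate could be left out. Depth is unknown, so an unlisted peak is not evidence of unacetylated chromatin, and peaks parted by narrow gaps count as several.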
